A study of Mus musculus with 6 samples.

Results

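Toll-like receptors (TLRs) recognise microbial products and nucleic acids in macrophages, the lineage from which osteoclasts arise. The genes described are the surface receptors Tlr1, Tlr2, Tlr4 and Tlr6, the endosomal receptors Tlr3, Tlr7, Tlr8 and Tlr9, and the adaptors Myd88 and Ticam1. They were found by gene symbol in the array's annotation. All 10 were measured, each by 1 feature, among 19930 genes in all. Expression was compared between H10 cells, an osteoclastogenic line, and C8 cells, a non-osteoclastogenic line, with 3 arrays of each. Both lines are clones of mouse RAW264.7 macrophages that carry a Lifeact-mEGFP retroviral vector and its puromycin resistance, and both had received sRANKL (60 ng/mL) for 2 days of culture. Each phenotype is therefore represented by 1 clone, and differences tied to osteoclastogenesis (OCG) cannot be told apart from other differences between the clones. Separate cultures are not stated for the 3 arrays of either line, so the spread behind the p-values may be technical.

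TLRs sense their ligands with leucine-rich repeats and signal through a cytoplasmic TIR domain. At the cell surface, Tlr2 pairs with Tlr1 or Tlr6 to bind bacterial lipopeptides, and Tlr4 binds lipopolysaccharide with the help of Ly96 and Cd14. In endosomes, Tlr3 binds dsRNA, Tlr7 and Tlr8 bind ssRNA or its breakdown products, and Tlr9 binds unmethylated CpG DNA. Most receptors signal through Myd88 towards NF-κB, whereas Tlr3 signals through Ticam1 (TRIF) towards interferon genes. Tlr4 uses both routes. TLR ligands given before RANKL are known to hold back OCG, while the same ligands can act with RANKL on committed precursors.

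The arrays gave log2 values made by the authors with RMA. The array medians were 7.65 to 7.74 and the lower quartiles 6.34 to 6.44. The macrophage markers Cd68, Spi1 and Csf1r had mean log2 values of 13.63, 13.46 and 13.24 in H10 cells against 13.59, 13.41 and 13.33 in C8 cells, far above the array medians, whereas Mrc1 and Mertk lay below those medians in both lines. Of 10 macrophage markers, only Adgre1, which encodes F4/80, passed the test, at a mean of 9.58 in H10 against 7.56 in C8 cells (adjusted p = 0.00114 from limma). At an unadjusted p under 0.05, 3 of the 10 were higher (Adgre1, Itgam and Fcgr1) and 1 lower (Laptm5), where 6.1% of all genes were higher and 7.67% lower. Of 8 osteoclast markers, H10 cells had 6 higher and 0 lower by limma, where 1.85% of all genes were called higher and 1.04% lower. Nfatc1 and Calcr did not pass the test. The paper reports Ctsk, Dcstamp, Ocstamp and Oscar as higher from these arrays, so the count is not independent evidence. Other cell types in which Tlr7 and Tlr9 are prominent were checked by their markers. The plasmacytoid dendritic cell gene Siglech had means of 7.34 and 7.39, and the B cell gene Ms4a1 had 5.65 and 5.68, in H10 and C8 cells respectively, all below the array medians. Of 5 markers of plasmacytoid dendritic cells, Tcf4 was lower in H10 cells, by 0.38 (adjusted p = 0.0385), at means of 10.87 in H10 and 11.25 in C8 cells, both above the array medians, and 0 were higher. Of 5 markers of B cells, 5 of T cells and 6 of fibroblasts, 0 passed the test in either direction by limma; at an unadjusted p under 0.05, 1 B cell and 1 T cell marker were lower and 1 fibroblast marker was higher. Differences are given below as H10 minus C8 on the log2 scale, and the test was limma over all features with the Benjamini-Hochberg adjustment and a threshold of 0.05. No array was of unstimulated cells or of another day. The words rose, fell and rise therefore describe H10 relative to C8 cells, and not change during RANKL treatment.

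Of the 10 genes, Tlr3 rose in H10 cells, Tlr1 fell and the other 8 did not pass the test. The background was 1.85% of all genes called higher and 1.04% called lower. The median log2 difference of the 10 genes was 0.05, and that of all genes was -0.03. At an unadjusted p under 0.05, 2 of the 10 were higher and 3 lower, against 6.1% and 7.67% of all genes. The H10 arrays lay entirely above the C8 arrays for 2 of the 10 genes, Tlr3 and Tlr4, as for 7.74% of all genes. They lay entirely below for 2, Tlr1 and Tlr6, as for 12.7% of all genes.

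**Figure D1:**
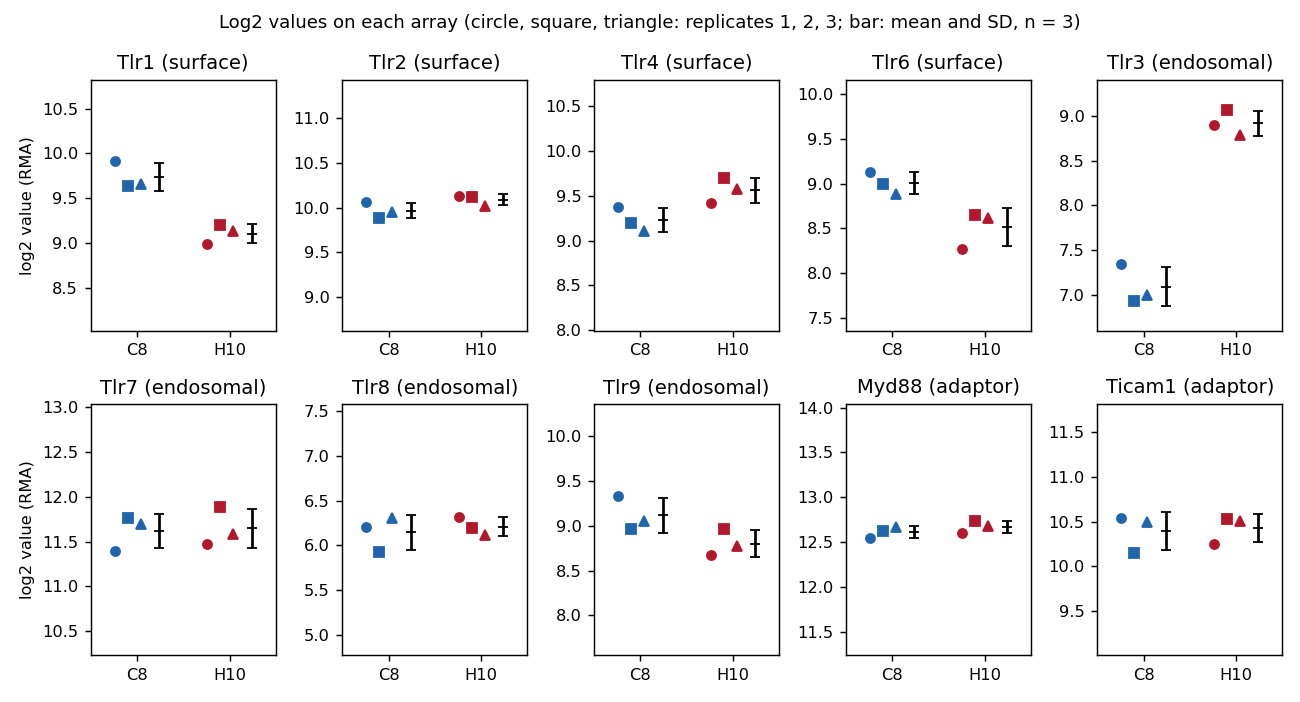
Log2 RMA value of each gene on each array of C8 (blue) and H10 cells (red), with circles, squares and triangles for replicates 1, 2 and 3 and bars for the mean and SD (n = 3). Each panel spans the same range of 2.8 log2 units around its own centre, so that the gap between the lines can be compared between panels but the levels cannot. Tlr3 has the widest gap, from 7.34 on the highest C8 array to 8.78 on the lowest H10 array.

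Tlr3, the endosomal receptor for dsRNA, had log2 values of 8.90, 9.06 and 8.78 in replicates 1 to 3 of H10, against 7.34, 6.93 and 7.0 in those of C8. The lowest H10 array stood 1.44 above the highest C8 array, whereas the arrays of a line lay within 0.41 of each other. H10 cells averaged 8.91 ± 0.14 (SD, n = 3) and C8 cells 7.09 ± 0.22 (SD, n = 3), which is 3.54-fold apart (95% confidence interval 2.86 to 4.38). The log2 difference was 1.82 with a standard error of 0.13 and an adjusted p = 0.0020 from limma. The C8 mean was under the median of every array, and with no measure of background the fold is uncertain. The call held in each of 14 other settings, with log2 differences of 1.74 to 1.96 and an adjusted p of 3.23e-05 to 0.0186. Tlr3 is itself known to be induced by interferon. Irf7, 1 interferon-inducible gene of the same arrays, read 12.03, 12.72 and 12.59 in H10 cells against 8.81, 8.55 and 8.85 in C8 cells. The paper names Irf7 from these arrays, and it does not stand for interferon-inducible genes as a set. H10 replicate 1 was the lowest H10 array for Irf7, but the middle one for Tlr3, whose H10 arrays lay within 0.28 of each other. This order of 3 arrays was not tested. Of the 20 nearest measured genes, 10 on either side of Tlr3, 1 passed the test as higher, its immediate neighbour Sorbs2 with a log2 difference of 0.33 (adjusted p = 0.044), and 0 were lower; their median log2 difference was -0.08. Whether the rise of Tlr3 follows from interferon signalling was not tested.

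The sequence before the Tlr3 start is shown because it is the member with the clearest difference, beside that of Myd88, which did not pass the test. Both are the 250 bases before an annotated RefSeq start on the GRCm38.p6 build, written 5′ to 3′ on the strand of the gene. The Tlr3 window is chr8:45410381-45410630 and the Myd88 window chr9:119340019-119340268, both on the minus strand. Capitals mark matches, on either strand, to the interferon-stimulated response element core GAAANNGAA, the gamma-activated site TTCNNNGAA, the PU.1 motif GAGGAAGT, the κB motif GGANTTTCC and the IRF element AANNGAAA. The last of these was added after the Tlr3 window had been seen.
Tlr3: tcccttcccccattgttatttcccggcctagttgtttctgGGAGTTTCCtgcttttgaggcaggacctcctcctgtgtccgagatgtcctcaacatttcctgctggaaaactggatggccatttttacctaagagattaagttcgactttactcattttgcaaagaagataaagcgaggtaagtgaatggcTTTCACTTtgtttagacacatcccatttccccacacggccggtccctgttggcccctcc
Myd88: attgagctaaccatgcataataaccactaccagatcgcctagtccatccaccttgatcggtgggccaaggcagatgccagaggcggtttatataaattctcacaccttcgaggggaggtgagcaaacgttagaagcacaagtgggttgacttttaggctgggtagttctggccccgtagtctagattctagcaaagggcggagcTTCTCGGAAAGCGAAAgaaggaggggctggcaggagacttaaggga

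The Tlr3 window held 1 match to the κB motif, which 1.07% of all 32851 promoter windows of this length held. It also held 1 match to the IRF element, 59 to 52 bases before the start, as 21.3% of all windows did. It held 0 matches to the response element core and the gamma-activated site. The Myd88 window held 1 match to the response element core (7.13% of all windows) and 1 to the gamma-activated site (7.02%), which overlapped each other and a match to the IRF element. A match is a string of letters and was not tested as a binding site. Windows were found for 8 of the 10 genes, all but Tlr4 and Tlr7. Those of Tlr9 and Ticam1 held no match to any of these motifs, and that of Tlr2 held only 2, both to the IRF element. The Tlr8 window held 1 match to the response element core and 1 to the gamma-activated site.

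Tlr1, which pairs with Tlr2 to bind triacylated lipopeptides, had log2 values of 8.99, 9.20 and 9.13 in H10 cells, against 9.92, 9.64 and 9.66 in C8 cells. All H10 arrays lay below all C8 arrays, by at least 0.44. The means were 9.11 ± 0.11 (SD, n = 3) and 9.74 ± 0.16 (SD, n = 3), and Tlr1 fell by 0.63 on the log2 scale (standard error 0.10, adjusted p = 0.0329 from limma), a 1.55-fold difference. Leaving out any H10 array, or C8 replicate 2 or 3, ended this call (adjusted p = 0.0821 to 0.134). Without C8 replicate 1 it held at an adjusted p = 0.0489. It was also lost with median centring (adjusted p = 0.0588) and when replicate 1 of both lines was left out (adjusted p = 0.0637). The log2 difference stayed between -0.68 and -0.49 in all 14 settings.

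Tlr6, the partner of Tlr2 for diacylated lipopeptides, had log2 values of 8.27, 8.65 and 8.62 in H10 cells and 9.13, 9.0 and 8.89 in C8 cells. The groups did not overlap, and H10 replicate 1 lay lowest. The log2 difference was -0.49 (standard error 0.12, adjusted p = 0.134), which did not pass the test. Tlr1 and Tlr6 are paralogs that are nearest neighbours among the measured genes of chromosome 5. Probe sequences were not used here, so whether their features share signal was not tested. Of the 19 other genes within 10 measured genes of Tlr1, 0 passed the test in either direction by limma, and their median log2 difference was -0.06, with a range of -0.29 to 0.58. The largest of these was that of Klf3, the neighbour of Tlr1 on its other side (adjusted p = 0.0935).

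The 250 bases before 1 annotated start of each of these neighbours are shown in the same way, since these are the members with lower values and no overlap. The windows are chr5:64933559-64933808 for Tlr1 and chr5:64959167-64959416 for Tlr6, both on the minus strand of GRCm38.p6.
Tlr1: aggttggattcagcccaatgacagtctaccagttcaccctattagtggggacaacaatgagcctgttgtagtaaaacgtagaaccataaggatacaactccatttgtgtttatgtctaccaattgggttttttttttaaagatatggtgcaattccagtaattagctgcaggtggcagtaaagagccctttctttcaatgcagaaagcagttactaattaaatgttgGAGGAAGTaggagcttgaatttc
Tlr6: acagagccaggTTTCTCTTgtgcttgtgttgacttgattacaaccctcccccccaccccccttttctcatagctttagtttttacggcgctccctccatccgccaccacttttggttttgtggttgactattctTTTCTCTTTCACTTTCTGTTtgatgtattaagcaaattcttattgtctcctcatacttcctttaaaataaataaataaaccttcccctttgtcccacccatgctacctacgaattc

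The Tlr1 window held 1 match to the PU.1 motif, 23 to 16 bases before the start, as 2.44% of all windows did. PU.1 is a transcription factor of the macrophage lineage, encoded by Spi1. The Tlr6 window held 2 overlapping matches to the response element core and 4 to the IRF element, 3 of which overlapped that pair. Both genes have a second annotated start. The window before it held 1 match to the gamma-activated site and 1 to the IRF element for Tlr1, and no match for Tlr6.

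Tlr2, the shared partner of Tlr1 and Tlr6, had log2 values of 10.13, 10.12 and 10.02 in H10 cells and 10.06, 9.89 and 9.95 in C8 cells. The groups overlapped, and the ratio of H10 to C8 was 1.09 (95% confidence interval 0.968 to 1.23, adjusted p = 0.618 from limma). Tlr4, the receptor for lipopolysaccharide, had values of 9.42, 9.70 and 9.57 in H10 against 9.37, 9.20 and 9.11 in C8 cells. Its groups did not overlap, but the lowest H10 array was only 0.05 above the highest C8 array. Its log2 difference of 0.34 (standard error 0.10, adjusted p = 0.228) did not pass the test. Thus none of the surface receptors passed the test in the upward direction by limma, and at an unadjusted p under 0.05 there was 1, Tlr4.

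**Figure D2:**
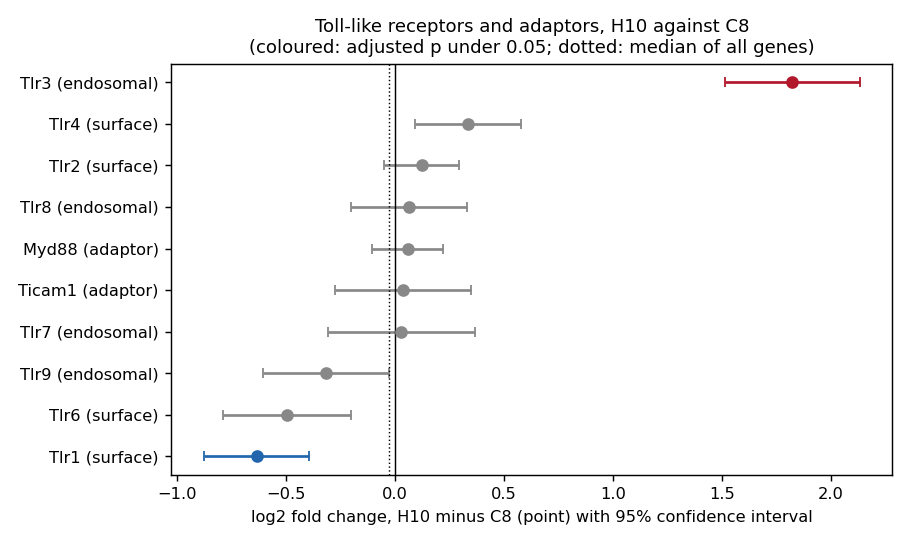
Log2 difference of each gene, H10 minus C8, with its 95% confidence interval from limma, ordered by size; colour marks an adjusted p under 0.05, the solid line 0 and the dotted line the median of all genes (-0.03). Tlr3 stands at 1.82 and Tlr1 at -0.63, and the other 8 genes lie between -0.49 and 0.34.

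Among the endosomal receptors, Tlr7 and Tlr8 did not pass the test. Tlr7, a sensor of ssRNA, had log2 values of 11.47, 11.89 and 11.59 in H10 cells and 11.40, 11.76 and 11.70 in C8 cells. The arrays of the lines were interleaved, and the ratio of H10 to C8 was 1.02 (95% confidence interval 0.808 to 1.29, adjusted p = 0.974). Tlr8, which lies next to Tlr7 on the X chromosome, had values of 6.32, 6.19 and 6.12 in H10 against 6.20, 5.93 and 6.30 in C8 cells. Both means, 6.21 and 6.14, were under the lower quartile of every array, and the ratio was 1.05 (95% confidence interval 0.871 to 1.26, adjusted p = 0.912). With so dim a feature, a difference in Tlr8 might not be detectable on these arrays.

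Tlr9, the receptor for CpG DNA, had log2 values of 8.67, 8.96 and 8.78 in H10 cells and 9.33, 8.96 and 9.06 in C8 cells. Replicate 2 of both lines had the same value, so the groups met without separating. The log2 difference was -0.31 (standard error 0.12, adjusted p = 0.374), with an interval of -0.60 to -0.02 that is not adjusted for the number of features tested. The adjusted p of Tlr9 was 0.177 to 0.684 over the 14 settings.

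The 2 adaptors did not pass the test. Myd88 had log2 values of 12.60, 12.73 and 12.68 in H10 cells and 12.54, 12.62 and 12.67 in C8 cells. The arrays overlapped, and the interval of the ratio was the narrowest of the 10 genes on the log2 scale, at 0.932 to 1.17 around 1.04 (adjusted p = 0.85). Ticam1, the adaptor of Tlr3, had 10.25, 10.53 and 10.51 in H10 against 10.54, 10.15 and 10.49 in C8 cells. The highest of the 6 arrays was C8 replicate 1 and the lowest C8 replicate 2. Its ratio was 1.03 (95% confidence interval 0.827 to 1.27, adjusted p = 0.965), while that of the receptor Tlr3 was 3.54. At an unadjusted p under 0.05, 0 of the adaptors differed.

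**Figure D3:**
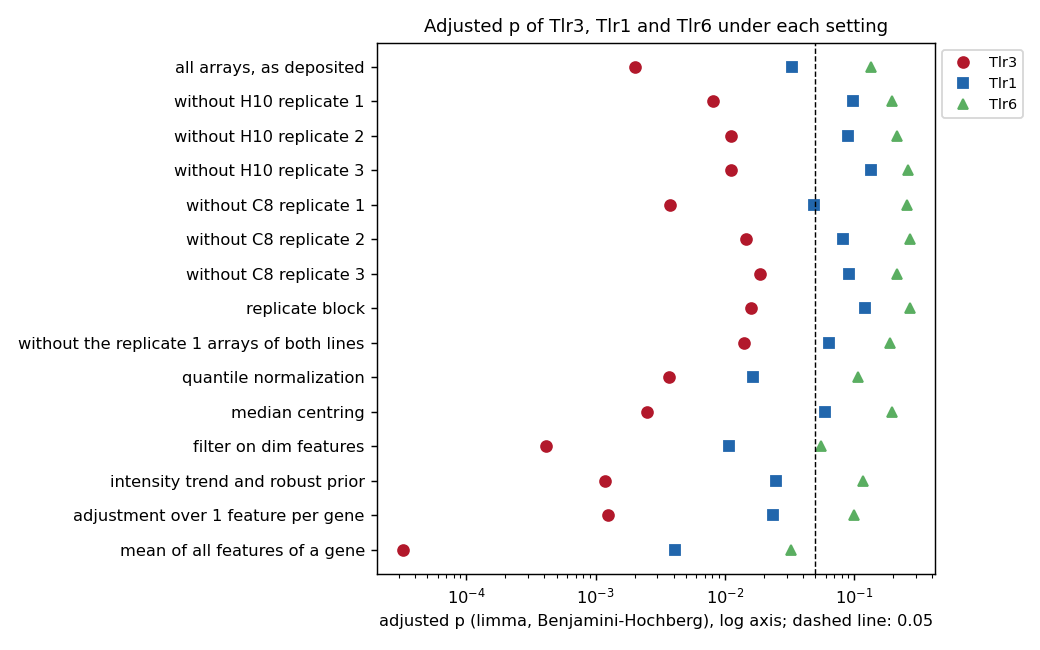
Adjusted p of Tlr3, Tlr1 and Tlr6 (log axis) in the comparison as described and in each of 14 other settings, with a dashed line at 0.05. Tlr3 lies left of the line in every setting, Tlr1 on the left in 6 of the 14 and Tlr6 on the left in 1.

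The rest of the pathway was described from 8 lists with 99 genes, of which 92 were measured. Features naming Tlr5, Tlr11, Irak4, Traf3, Ripk1, Chuk and Nfkb1 alone were not found, and these 7 genes were not analysed here. Of the 92, 11 rose in H10 cells, 1 fell and 80 did not pass the test (background 1.85% higher and 1.04% lower). The median log2 difference was 0.06, against -0.03 for all genes. These lists were chosen with earlier results of these data known. They hold Irf7 and Trim30a, which the paper names from these arrays, so the counts are not independent evidence. The count of genes that rose was 4 when H10 replicate 2 or 3 or C8 replicate 2 or 3 was left out, 7 without C8 replicate 1 and 8 without H10 replicate 1.

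Of 4 other proteins with a TIR domain, Pik3ap1 rose, Ticam2 fell and 2 did not pass (1.85% of all genes were called higher and 1.04% lower). Ticam2, which encodes TRAM, the bridge between Tlr4 and Ticam1, had log2 values of 8.72, 9.13 and 8.94 in H10 cells and 9.85, 9.73 and 9.95 in C8 cells. All H10 arrays were lower by at least 0.60, and Ticam2 fell by 0.91 (standard error 0.12, adjusted p = 0.015). Tirap, which bridges Tlr2 and Tlr4 to Myd88, had 11.09, 11.02 and 11.04 in H10 against 11.61, 11.44 and 11.37 in C8 cells. All H10 arrays of Tirap lay below all C8 arrays, as for 12.7% of all genes, and the log2 difference was -0.42 (adjusted p = 0.0555). Pik3ap1, which encodes BCAP and links receptors to PI3-kinase, rose by 0.48 (adjusted p = 0.0208). Leaving out H10 replicate 3 or any C8 array ended the call of Ticam2 (adjusted p = 0.0521 to 0.0781). Pik3ap1 passed without C8 replicate 1 (adjusted p = 0.0232) and in no other fit with 1 array left out.

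Of 7 co-receptors and ligand carriers, 2 rose and 0 fell (1.85% and 1.04% of all genes). These were Cd180 and Ly86, whose products form a surface complex that resembles that of Tlr4 and Ly96 and modulates TLR signalling. Cd180 had log2 values of 13.11, 13.33 and 13.22 in H10 cells against 12.48, 12.44 and 12.49 in C8 cells. This was a rise of 1.68-fold (log2 difference 0.75, standard error 0.07, adjusted p = 0.00604). The lowest H10 array was 0.62 above the highest C8 array, and the call held in all 14 settings. Ly86 rose by 0.42 (adjusted p = 0.0343), a call that was lost without any 1 of the 6 arrays (adjusted p = 0.0616 to 0.154). The partners of Tlr4 did not pass the test, with a ratio of 1.04 for Cd14 (95% confidence interval 0.907 to 1.19) and of 1.04 for Ly96 (0.877 to 1.23).

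Of 13 genes that fold, transport or cleave the receptors, 2 rose and 0 fell (1.85% and 1.04% of all genes). Both encode endosomal proteases that can process endosomal TLRs, the cathepsins Ctss and Ctsb. They rose by 0.86 (adjusted p = 0.0376) and 0.50 (adjusted p = 0.0304), and each passed without H10 replicate 1 (adjusted p = 0.02 and 0.0442) and lost its call without any other single array. The proteases Ctsl and Lgmn of the same list did not pass by limma. Their log2 differences were 0.07 (adjusted p = 0.796) and 0.09 (adjusted p = 0.885). Unc93b1, the chaperone that carries endosomal TLRs out of the endoplasmic reticulum, had a log2 difference of -0.08 (adjusted p = 0.818). Hsp90b1, which folds most TLRs, had -0.09 (adjusted p = 0.682).

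Of 16 signal transducers measured downstream of the adaptors, 0 rose and 0 fell by limma, and at an unadjusted p under 0.05 there was 1 higher, the ubiquitin ligase gene Traf6 with a log2 difference of 0.15 (adjusted p = 0.396), where 6.1% of all genes were higher at that threshold. All 16 differences lay between -0.15 and 0.15. Of 13 transcription factors, 2 rose, Irf7 by 3.71 (adjusted p = 0.000639) and Irf1 by 0.78 (adjusted p = 0.019), and 0 fell (1.85% and 1.04% of all genes). The paper names Irf7 from these arrays, so it is not independent evidence of the direction. The paper also followed Irf7 and Trim30 (Trim30a here) by RT-qPCR over OCG in bone marrow monocytes and RAW264.7 cells. It reports no significant increase of either there, a different comparison from H10 against C8. Irf1 has 2 features on the array, and their mean gave a log2 difference of 0.38 (adjusted p = 0.00788) in place of 0.78 for the brighter one. Irf1 passed without C8 replicate 1 (adjusted p = 0.0153) but lost its call without any other single array. Irf5, which acts with Myd88, had a log2 difference of 0.06 (adjusted p = 0.912), and Rela, the p65 subunit of NF-κB, had -0.12 (adjusted p = 0.602).

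Of 17 negative regulators, 3 rose and 0 fell (1.85% and 1.04% of all genes). At an unadjusted p under 0.05 from limma, 6 were higher and 1 lower, against 6.1% and 7.67% of all genes. The rise of Trim30a, which lowers NF-κB signalling from TLRs, was 5.34 (adjusted p = 0.000138); its C8 mean of 7.33 was under the median of every array, so its size is uncertain, and the paper names this gene from these arrays. Dusp1, a phosphatase of MAP kinases, rose by 0.99 (adjusted p = 0.0363), and Trafd1, a feedback inhibitor of TLR signalling, by 0.83 (adjusted p = 0.0418). Both passed without H10 replicate 1 (adjusted p = 0.0395 and 0.016) but lost their calls without any other single array. Irak3, an inhibitory kinase-like protein, had a log2 difference of 0.66 (adjusted p = 0.0796), and Tnfaip3, which encodes A20, had 0.47 (adjusted p = 0.106). For both, all H10 arrays lay above all C8 arrays, as for 7.74% of all genes. Other genes of this list that did not pass were also separated, some above and some below.

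Of 20 genes that TLR signals are known to induce, 1 rose and 0 fell (1.85% and 1.04% of all genes). This was the chemokine gene Ccl2, with log2 values of 10.14, 9.83 and 9.58 in H10 cells against 8.41, 8.18 and 8.31 in C8 cells. The rise was 2.93-fold (log2 difference 1.55, standard error 0.15, adjusted p = 0.00528). It held in all 14 settings, with an adjusted p of up to 0.037. At an unadjusted p under 0.05 from limma, 5 of the 20 genes were higher and 0 lower, against 6.1% and 7.67% of all genes. Tnf had a ratio of 1.01 (95% confidence interval 0.863 to 1.17, adjusted p = 0.986). Il6 had means of 3.79 and 3.82, under the lower quartile of every array, and a log2 difference of -0.03. Of the other TLRs, Tlr13, a mouse receptor for bacterial ribosomal RNA, and Tlr12 were measured, and neither passed the test. Tlr13 was spread widely within each line, at 9.04, 9.85 and 9.39 in H10 against 8.54, 9.64 and 9.53 in C8 cells. Replicate 1 was the lowest array of both lines, and the interval of the ratio was 0.656 to 1.98.

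**Figure D4:**
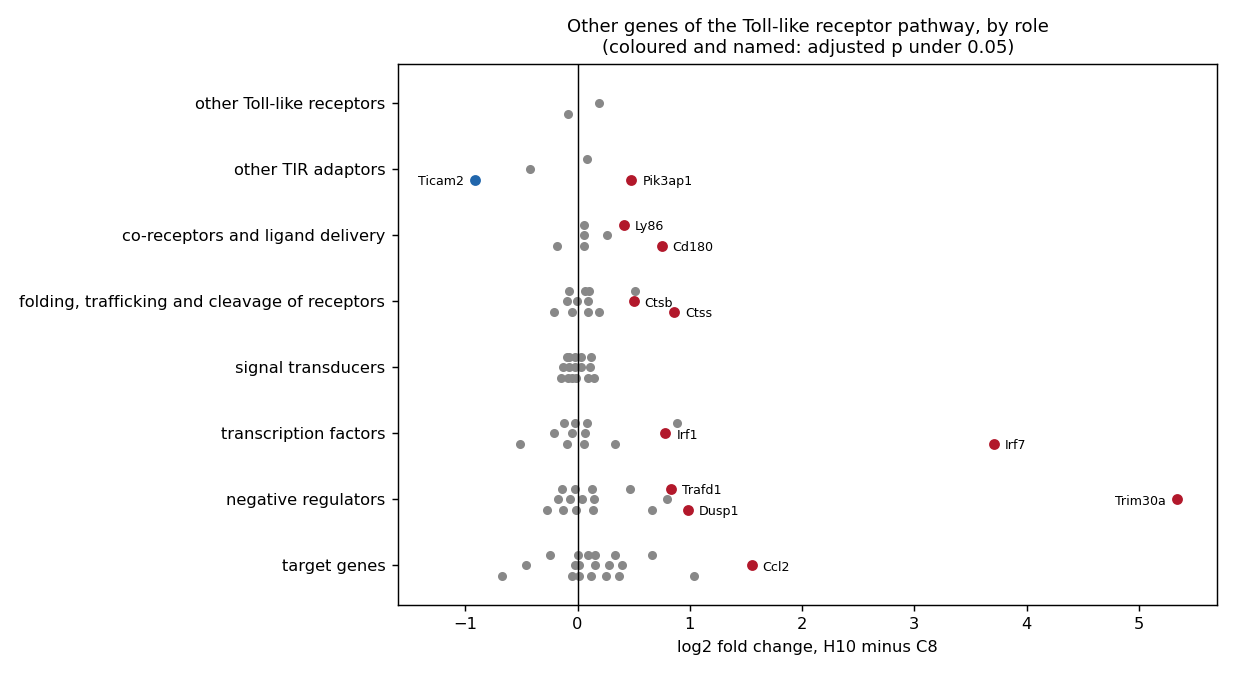
Log2 difference, H10 minus C8, of the 92 measured genes in 8 lists of the TLR pathway, 1 point per gene and 1 row per list, with small vertical offsets for legibility; colour and names mark an adjusted p under 0.05. The 16 signal transducers lie within 0.15 of 0, and the largest values are those of Trim30a (5.34), Irf7 (3.71) and Ccl2 (1.55).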

How the data were processed

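Total RNA of H10 and C8 cells was measured on Affymetrix Mouse Gene 1.0 ST arrays, 3 per line. The deposited log2 values were made by the authors with RMA. This method subtracts background, gives the probe values of all arrays the same distribution and then merges the probes of a feature. The merged values did not share 1 distribution, with array medians of 7.65 to 7.74. Affymetrix Expression Console is named in the submitters' processing notes, and the sources used here give no version. The table had 35545 features, 21781 of them with 1 gene symbol. The members' Entrez identifiers matched RefSeq for 10 of 10. Where a gene had several features, the one with the highest mean stood for it. Lines were compared with limma 3.58.1 (lmFit and eBayes, two-sided, 4 residual and 2.57 prior degrees of freedom) in R 4.3.3. P-values were adjusted over all features, and 95% confidence intervals came from the moderated fit. The paper's methods also used limma, but selected genes by FDR together with a minimum fold change. No fold threshold was applied here, so a gene called here need not meet the paper's criteria. An exact permutation test of 3 against 3 arrays cannot go below p = 0.1. No array pair held the same values. The number of arrays limits the precision.

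The members and lists were chosen with earlier results of these data known. Named genes are the members, up to 4 called genes per list and direction, and up to 2 chief genes per list that did not pass. Marker genes, Klf3, Sorbs2, Ctsl and Lgmn were named after their values were seen. No list was given a set test. Promoter windows came from RefSeq (GRCm38.p6). The annotation of the array names no build, so gene order alone was taken from that assembly's gene table. Alternatives were leaving out each array, the replicate block, omission of both replicate 1 arrays, centring on the array median, quantile normalization, dropping features that exceed the overall median on fewer than 3 arrays, an intensity trend with a robust prior, adjustment over 1 feature per gene, and the mean of a gene's features. matplotlib 3.10.9 (Python 3.11.15) drew the figures.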

Additional observations from a re-analysis of the deposited data

How the results depend on the processing

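The count of members that rose was 1, Tlr3, in all 14 settings. The count that fell was 1, Tlr1, and ranged from 0 to 1 with 1 array left out; it was 0 with the replicate block, 0 without the replicate 1 arrays of both lines, 0 with median centring and 2 (Tlr1 and Tlr6) with a gene's features averaged. Of the pathway genes, 11 rose, and 4 to 8 did with 1 array left out, 6 with the replicate block, 16 with the filter on dim features and 16 with the features averaged; 1 fell, and 0 to 1 did with 1 array left out, 0 with the replicate block, 0 without the replicate 1 arrays of both lines, 2 with quantile normalization, 3 with the filter on dim features, 2 with an intensity trend and robust prior, 2 with the adjustment over 1 feature per gene and 3 with the features averaged. The causes were not tested. Fewer features were tested with the filter and in both adjustments by gene, and the filter and the averaging also refitted the model. Tlr6, which has 1 feature, had an adjusted p from limma of 0.0995 with the adjustment over 1 feature per gene. It had 0.0325 with the features averaged. Among the members and the named pathway genes, no called difference changed sign in the settings run. The marker genes, Ctsl and Lgmn were not run in them. Averaging the 2 features of Irf1 moved its log2 difference from 0.78 to 0.38. Tlr8 and Il6 are dropped by the filter on dim features. Whether the replicate number pairs the arrays is not stated, and 3 arrays per line are too few to decide it. The deviations of arrays with the same number had correlations of 0.166, -0.0043 and -0.121, against up to 0.227 for unlike numbers. Of the 6 arrays, 2 correlated best with their own number.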
